A study of Mus musculus with 9 samples.

Results

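Spop knockout LSK cells were compared with wild-type LSK cells of mouse bone marrow, across all expressed genes. LSK cells are the marrow fraction sorted as negative for lineage antigens and positive for Sca-1 and Kit, and they hold the haematopoietic stem cells and multipotent progenitors. The comparison uses 4 of the 9 libraries of the series, chosen by their titles and source names: 2 with the genotype Spop(+/+) and 2 with the genotype Spop(D/D). All came from mice labelled 4 to 12 weeks old, and the other 5 libraries are Ly6G-positive neutrophils, not analysed here. By title and source name the second knockout library is LSK, but its cell type entry reads neutrophil. Reads of Ly6g, the antigen of the neutrophil sort, numbered 0 in all 4 libraries. Which Cre line was used, when deletion took place, which exons it removed and any treatment are not stated in the labels. Whether the replicates are separate animals is not stated either, and the p-values then reflect only library-to-library spread, which may be technical.

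SPOP picks the targets of a ubiquitin ligase built on cullin 3: it binds proteins, which are then marked with ubiquitin and in most cases degraded. Cullins are switched on by attachment of the small protein NEDD8 and switched off by the COP9 signalosome. The series title names MyD88, the adaptor of Toll-like and interleukin-1 receptors, as the target through which Spop restrains blood formation under inflammation. Stem and multipotent progenitor cells are known for low rates of protein synthesis and for dependence on signals from their niche, which reach them through Notch, Wnt, TGF-beta, G protein-coupled and adhesion receptors. The genes described here lie mostly outside lineage and cell cycle.

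The 4 libraries held 18827892 to 20264417 counted reads, so that a floor of 3 reads stood at 0.141 to 0.160 CPM, the read count scaled to library size by TMM. The first principal component, with 82.0% of the variance, separated the genotypes. Spop was at 380.4 and 390.1 CPM in wild type and 312 and 306 CPM in knockout. The knockout libraries were both below the wild-type libraries (a log2 difference of -0.32, SE 0.0889, edgeR adjusted p = 0.0118). Leaving out a wild-type library ended the call (adjusted p = 0.0832 with the first left out, 0.117 with the second left out). Reads of exons that were not deleted still count, so this level checks the genotype only in part. Kit was at 989.9 and 1049 CPM in wild type and 605 and 644 CPM in knockout, and the genotypes did not overlap (a log2 difference of -0.71, SE 0.0942, edgeR adjusted p = 8.33e-05). Ly6a, which encodes Sca-1, was at 169.5 and 157 CPM in wild type and 193 and 227 CPM in knockout (log2 0.36). The call ended without the first wild-type, the second wild-type or the second knockout library (adjusted p = 0.0610, 0.145 and 0.0598) and with upper-quartile scaling (adjusted p = 0.0596). Among markers of cells outside the gate, the summed level of 12 B lineage genes was 293 and 271 CPM in wild type against 72.2 and 78.6 CPM in knockout, with 11 of 11 tested genes lower. That of 12 erythroid genes went from 96.1 and 129 to 45.3 and 67.6 CPM, and that of 12 megakaryocyte and platelet genes from 695 and 735 to 464 and 465 CPM. The 16 monocyte and macrophage genes went from 748 and 731 to 592 and 556 CPM in sum, with 12 lower and 1 higher of 14 tested. Lyz2 held most of that sum (610 and 552 to 443 and 355 CPM), and Csf1r was the gene that rose (log2 1.88). Ly6c2, of the gated-out lineage antigens, rose too (log2 3.38), with 2 higher and 6 lower of 9 tested there. The 10 mast cell and basophil genes held 387 and 419 CPM in wild type but 470 and 545 CPM in knockout, with 8 higher and 1 lower. The 14 mature neutrophil genes summed to 168, 171, 201 and 157 CPM, with Ly6g, Stfa1 and Stfa2 at 0 in all 4 libraries, and of 10 tested 2 rose, among them Cxcr2 (log2 2.20), and 3 fell, among them Ngp (log2 -3.17). The knockout libraries stood apart from each other in these genes, with 1062 and 168 reads of S100a8, 382 and 40 of S100a9 and 47 and 1 of Camp. A list of 20 genes that respond to cell dissociation held 828 and 832 CPM in wild type and 843 and 851 CPM in knockout, but of 15 tested 3 rose, such as Hspa1b (log2 3.65) and Hsp90aa1 (log2 0.93), and 6 fell, such as Dusp1 (log2 -1.44) and Jund (log2 -0.84). The part of any marker or dissociation list in the results was not tested.

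Of 13008 genes tested with edgeR's quasi-likelihood test at an adjusted p of 0.05, 2738 were higher (21.0%) and 2756 lower (21.2%) in knockout, 42.2% in all. More of the large changes were losses: 587 genes were higher by more than 2-fold (4.51%) and 1163 lower by more than 2-fold (8.94%). Both knockout libraries lay above both wild-type libraries for 34.6% of genes and below them for 38.3%. The count of genes that fell was 1676 without the first and 1761 without the second wild-type library. Upper-quartile scaling, in place of TMM, moved the share of calls that were higher from 49.8% to 39.05%. Calls depended on the level of the gene: in the lowest of 5 equal bins of mean level 5.76% were higher and 19.2% lower, in the second 11.8% and 28.6%, and in the highest 42.5% and 16.0%. Each list below is given with the number of its tested genes in that highest level bin, and a list of few such genes is read beside the lower bins. Bulk RNA-seq cannot tell a change in the number of cells of a type from a change of RNA per cell.

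**Figure D1:**
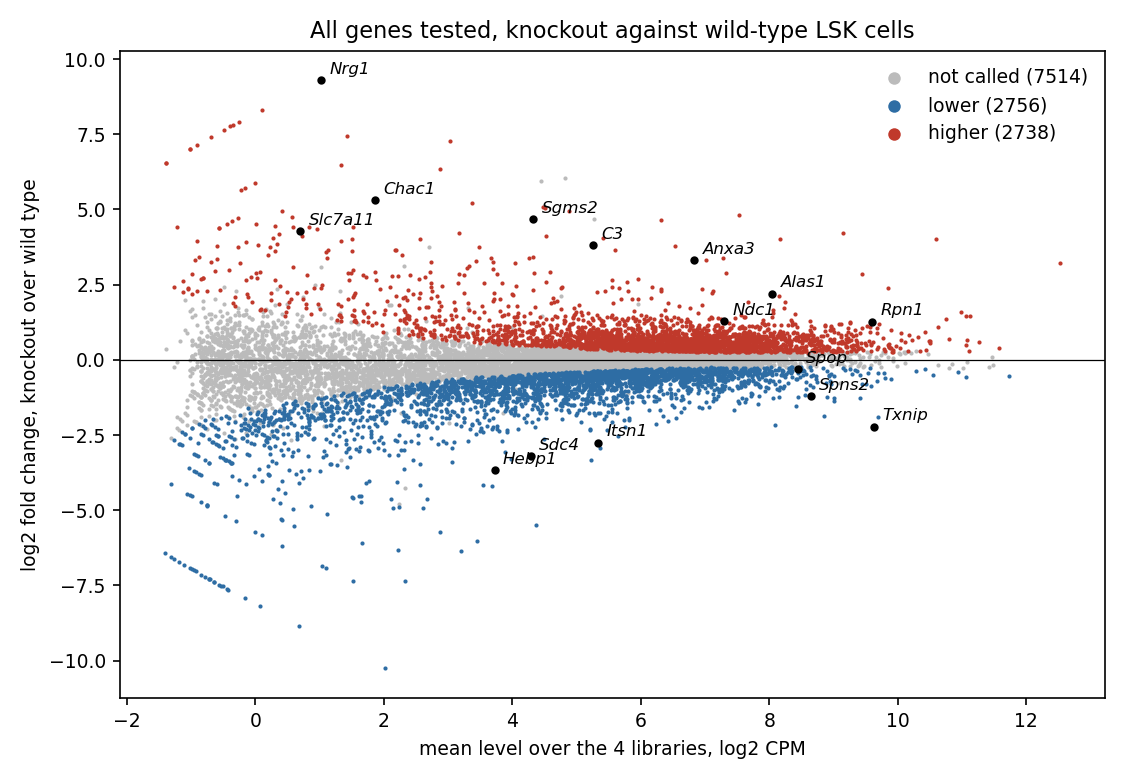
Each point is 1 of the 13008 genes tested, with its mean level over the 4 libraries (log2 CPM) on the horizontal axis and the log2 fold change of knockout over wild type on the vertical axis; red genes (2738) were called higher, blue genes (2756) lower and grey genes not called, by edgeR's quasi-likelihood test. Red points lie mostly towards high levels and the blue points with large changes towards low levels, and Spop (log2 -0.32) sits close to the zero line.

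From here on, a change given as 1 value to another is that of the mean level of the 2 wild-type to that of the 2 knockout libraries. The genes were read through 38 lists of functions with 1686 genes tested. In 17 lists more genes were higher than lower, in 20 more were lower, and in 1 the counts were equal. Beside a list stand the alternatives that moved its counts, or its median, by more than 1.5 times.

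**Figure D2:**
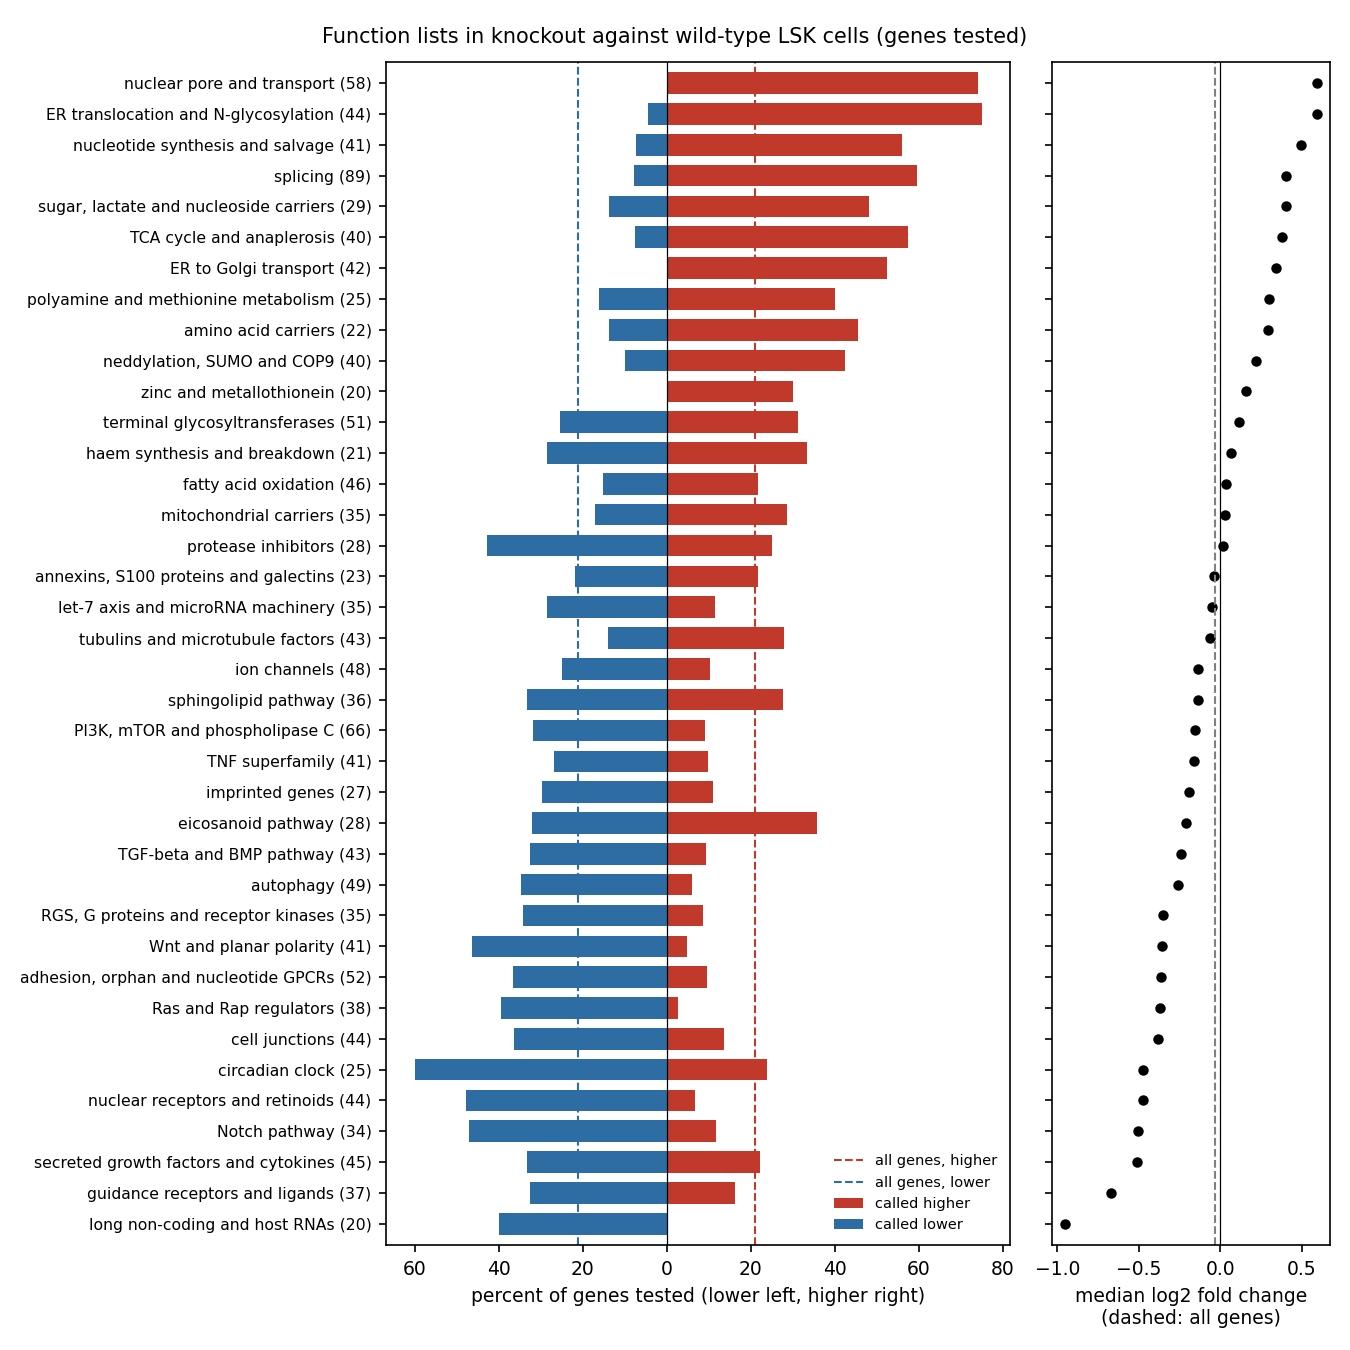
Left, the percent of tested genes of each function list that were called higher (red, to the right) or lower (blue, to the left), with the number tested after each name and the shares over all genes tested as dashed lines (21.0% and 21.2%); right, the median log2 fold change of each list, with that of all genes (-0.03) dashed. Nuclear pore and transport stands at the top with 43 of 58 genes higher, and long non-coding and host RNAs at the bottom with 8 of 20 lower.

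The nuclear pore is a ring of nucleoporins through which carriers of the importin and exportin families, driven by the GTPase Ran, move protein and RNA. Of the 58 genes tested in the nuclear pore and transport list, 43 rose and 0 fell, with 41 in the highest level bin and a median log2 fold change of 0.59. All 18 genes whose symbol begins with Nup followed by a number rose (median 0.73). Ndc1, a gene for a membrane-anchored nucleoporin, was at 87.3 and 95.2 CPM in wild type and 208 and 239 CPM in knockout, and both knockout libraries exceeded both wild-type libraries (a log2 difference of 1.29, SE 0.106, edgeR adjusted p = 2.19e-06). Nup93 was at 86.3 and 77.2 CPM in wild type and 187 and 178 CPM in knockout (log2 1.16, SE 0.104, adjusted p = 4.35e-06), and the inner-ring gene Nup205 went from 142 to 272 CPM. Nup107, a part of the Y-shaped scaffold, was at 79.7 and 97.1 CPM in wild type and 203 and 195 CPM in knockout (log2 1.17, SE 0.112, adjusted p = 7.12e-06). For Nup93 and Nup107 too, both knockout libraries lay above both wild-type libraries. Rcc1, which charges Ran with GTP, rose from 121 to 252 CPM (log2 1.06). The carriers Kpna3 (231 to 257 CPM) and Ipo11 (215 to 203 CPM) were not called. Among the 28 pore genes 26 rose and 0 fell, and among the 30 carriers and Ran factors 17 rose and 0 fell.

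Secretory proteins enter the endoplasmic reticulum through the translocon and receive a sugar tree from the oligosaccharyltransferase before they travel to the Golgi in coated vesicles. Of the 44 genes tested in the ER translocation and N-glycosylation list, 33 rose and 2 fell, with 25 in the highest level bin and a median log2 fold change of 0.59. 1 fell in DESeq2's Wald test, 0 fell without the first wild-type library, and 1 fell without the second knockout library. Granule genes of myeloid progenitors rose in the same libraries, Mpo (myeloperoxidase) from 1135 to 10647 CPM, Prtn3 from 294 to 1544 CPM, Ctsg from 169 to 1222 CPM, Ms4a3 from 57.6 to 1072 CPM and Elane (neutrophil elastase) from 178 to 2912 CPM. The call of Elane was lost without the first or second knockout library (adjusted p = 0.172 and 0.165) and with no filter (adjusted p = 0.0643). Their part in the rise of secretory genes was not tested. By role, 9 of 10 oligosaccharyltransferase genes, 12 of 16 translocon and signal peptidase genes and 12 of 18 genes of glycan assembly and trimming rose. Mogs, the glucosidase that makes the first cut of the transferred glycan, was at 226 and 232 CPM in wild type and 547 and 580.0 CPM in knockout (a log2 difference of 1.30, SE 0.0919, edgeR adjusted p = 7.96e-07). Rpn1 was at 440.2 and 469.9 CPM in wild type and 1034 and 1160.0 CPM in knockout (log2 1.27, SE 0.0995, adjusted p = 1.57e-06), and its partner in the transferase Rpn2 went from 361 to 861 CPM (log2 1.25). Ssr1, of the translocon-associated complex, went from 312 to 687 CPM (log2 1.14). For all 4 genes the knockout libraries lay above the wild-type libraries. Sec11c (229 to 280.1 CPM) and Spcs1 (169.9 to 191 CPM), which encode signal peptidase subunits, were not called. Tusc3 fell from 70.8 to 52.5 CPM (log2 -0.43), a call lost without the first wild-type library. In transport from the endoplasmic reticulum to the Golgi, 22 of 42 tested genes rose and 0 fell, with 28 in the highest level bin and a median log2 fold change of 0.34. 1 fell with upper-quartile scaling, and 1 fell without the first knockout library. By role, 8 of 11 COPI genes, 9 of 18 genes of cargo receptors and tethers and 5 of 13 COPII genes rose. Of the cargo receptors, Tmed3 rose from 127 to 267 CPM (log2 1.07), Lman1 from 166 to 332 CPM (log2 1.003), and Kdelr2, which returns escaped residents, from 47.05 to 90.4 CPM (log2 0.94).

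SR proteins bind exons and recruit the spliceosome, and the CLK kinases phosphorylate them. Of the 89 genes tested in the splicing list, 53 rose and 7 fell, with 58 in the highest level bin and a median log2 fold change of 0.41. Of the 39 genes of the spliceosome core 27 rose and 0 fell, while among 50 regulators 26 rose and 7 fell. Srsf1 was at 335 and 327 CPM in wild type and 768 and 739 CPM in knockout, and the genotypes were apart (a log2 difference of 1.19, SE 0.0913, edgeR adjusted p = 1.36e-06). Tra2a was at 18.2 and 22.5 CPM in wild type and 83.3 and 66.6 CPM in knockout (log2 1.88, SE 0.157, adjusted p = 3.22e-06). Srsf7 went from 453 to 936 CPM (log2 1.05) and Srsf2 from 354 to 673 CPM (log2 0.93), with 25.3% of the exon bases of Srsf2 shared with the opposite-strand gene Mettl23. Srsf5 was at 176 and 184 CPM in wild type and 103 and 105 CPM in knockout and fell (log2 -0.80, SE 0.0970, adjusted p = 4.12e-05). The kinases Clk4 (63.9 to 32.5 CPM, log2 -0.97) and Clk1 (86.1 to 48.5 CPM, log2 -0.83) fell as well. Mbnl1 (784 to 843 CPM) and Hnrnpk (708 to 809.8 CPM) were not called.

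Purine and pyrimidine rings are built in multi-step pathways, and free bases and nucleosides are recovered by salvage. Of the 41 genes tested in the nucleotide synthesis and salvage list, 23 rose and 3 fell, with 25 in the highest level bin and a median log2 fold change of 0.49. 5 fell without the second knockout library. In purine synthesis 11 of 13 genes rose and 0 fell, in pyrimidine synthesis 5 of 9 and 0, and in salvage and breakdown 7 of 19 rose and 3 fell. Cad, the enzyme of the first steps of pyrimidine synthesis, was at 139 and 145 CPM in wild type and 323 and 337 CPM in knockout (a log2 difference of 1.21, SE 0.0925, edgeR adjusted p = 1.28e-06). Pfas, of purine synthesis, went from 26.4 to 59.1 CPM (log2 1.16), and Gart, of the same pathway, from 264 to 530.0 CPM (log2 1.003), with 19.7% of its exon bases shared with an antisense gene. Xdh, the xanthine oxidoreductase that breaks purines down to uric acid, was at 5.02 and 6.80 CPM in wild type and 21.4 and 30.8 CPM in knockout (log2 2.14, SE 0.241, adjusted p = 2.93e-05). Upp1, the phosphorylase that splits uridine, was at 20.7 and 23.4 CPM in wild type and 4.12 and 5.43 CPM in knockout, and fell without overlap (log2 -2.21, SE 0.225, adjusted p = 1.05e-05). Tk2, the thymidine kinase of mitochondria, fell from 70.6 to 33.8 CPM (log2 -1.06). Cmpk1 (273 to 322 CPM) and Adss (239.6 to 262 CPM) were not called.

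The citric acid cycle burns acetyl groups, and anaplerotic reactions refill it from amino acids and pyruvate. Of the 40 genes tested in the TCA cycle and anaplerosis list, 23 rose and 3 fell, with 24 in the highest level bin and a median log2 fold change of 0.38. Of 17 cycle genes 13 rose and 0 fell. Bcat1, the cytosolic transaminase of branched-chain amino acids, was at 3.04 and 3.75 CPM in wild type and 20.96 and 19.1 CPM in knockout (a log2 difference of 2.56, SE 0.232, edgeR adjusted p = 4.66e-06). Got1 and Got2, the cytosolic and mitochondrial aspartate transaminases, went from 31.3 to 78.6 CPM (log2 1.33) and from 82.9 to 166 CPM (log2 0.9996). Me2, a malic enzyme, rose from 99.8 to 195 CPM (log2 0.97). Pdk2, a kinase that shuts the entry of pyruvate, fell from 59.3 to 22.04 CPM (log2 -1.43), and the glutamine synthetase Glul from 111 to 50.7 CPM (log2 -1.13). Pdk2 lies within 5 Mb of Spop on chromosome 11. In that window of 114 genes tested 17 were higher and 30 lower (14.9% and 26.3%, median log2 -0.23). Idh2 (526 to 620.1 CPM) and Mdh1 (418 to 463 CPM) were not called. Among mitochondrial carriers 10 of 35 tested genes rose and 6 fell, with 8 in the highest level bin and a median log2 fold change of 0.03, a median that changed sign in at least 1 alternative. 4 rose without the second wild-type library, and 3 fell without the first wild-type library. In fatty acid oxidation 10 of 46 tested genes rose and 7 fell (21.7% and 15.2%, beside 21.0% and 21.2% over all genes tested). The list had 13 in the highest level bin and a median log2 fold change of 0.04, a median that changed sign in at least 1 alternative. 5 rose and 4 fell without the first wild-type library, and 6 rose and 4 fell without the second wild-type library. Abcd2, a peroxisomal transporter of fatty acyl-CoA, rose from 14.5 to 47.8 CPM (log2 1.73). The mitochondrial dehydrogenase Acadm fell from 159 to 112 CPM (log2 -0.51).

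**Figure D3:**
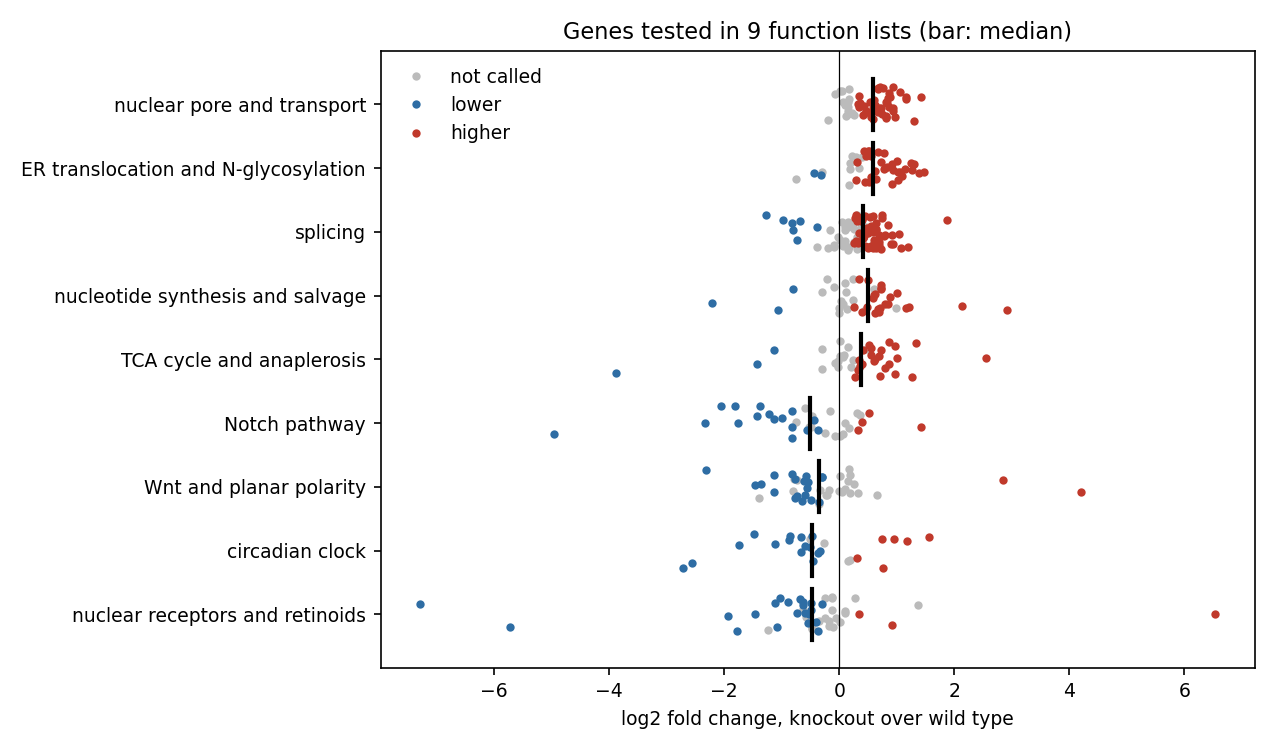
Each point is a tested gene of 1 of 9 function lists, placed by its log2 fold change of knockout over wild type and coloured by its call (red higher, blue lower, grey not called); the vertical position within a row is random and the black bar is the median. The upper 5 lists lie mostly to the right of zero (medians 0.38 to 0.59) and the lower 4 mostly to the left (medians -0.50 to -0.36).

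Cells import amino acids, sugars and lactate through carriers of the SLC families. Of the 22 genes tested in the amino acid carriers list, 10 rose and 3 fell, with 7 in the highest level bin and a median log2 fold change of 0.29. 5 fell with upper-quartile scaling, and 1 fell without the second wild-type library. Its median became 0.48 without the second wild-type library. Slc7a5, the transporter of large neutral amino acids, was at 131 and 143 CPM in wild type and 357 and 328 CPM in knockout (a log2 difference of 1.32, SE 0.0980, edgeR adjusted p = 1.1e-06), and its heavy chain Slc3a2 went from 164 to 279.7 CPM (log2 0.77). Slc7a1, a carrier of arginine and lysine, rose from 29.9 to 68.7 CPM (log2 1.20). Slc43a2, another carrier of neutral amino acids, fell from 83.3 to 48.2 CPM (log2 -0.79). Slc7a3 was at 0 reads in both wild-type libraries and at 41 and 35 reads in the knockout libraries, at least 13.7-fold higher against a floor of 3 reads per library. Among carriers of sugar, lactate and nucleosides 14 of 29 tested genes rose and 4 fell, with 7 in the highest level bin and a median log2 fold change of 0.41. 2 fell without the first wild-type library. Slc16a1, a carrier of lactate and other monocarboxylates, was at 141 and 144 CPM in wild type and 395 and 370.0 CPM in knockout (log2 1.42, SE 0.0927, adjusted p = 4.03e-07), and the related Slc16a3 went from 10.7 to 25.5 CPM (log2 1.25). Slc2a3, a glucose transporter, was at 205 and 208 CPM in wild type and 85.5 and 92.8 CPM in knockout, and fell without overlap (log2 -1.21, SE 0.0991, adjusted p = 2.14e-06), while its relative Slc2a6 rose from 7.70 to 20.9 CPM (log2 1.44). Slc35b1, a carrier of the endoplasmic reticulum, was at 37.4 and 36.7 CPM in wild type and 95.4 and 94.2 CPM in knockout (log2 1.36, SE 0.115, adjusted p = 2.89e-06). Slc35b1 (chromosome 11, 95384692 to 95391776, GRCm38) lies beside Spop (95414080 to 95493406). Slc45a4 (91.8 to 79.8 CPM) and Slc35b2 (256 to 284 CPM) were not called.

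The genes of this paragraph and their promoters were chosen after their values were seen. Chac1, which degrades glutathione, and Slc7a11, which imports cystine, were among the genes of large rise, at 4 and 3 reads in wild type against 150 and 118 in knockout (Chac1, log2 5.32, adjusted p = 5.02e-06) and at 4 and 2 against 73 and 40 (Slc7a11, log2 4.28, adjusted p = 0.000272). The upstream bases of both hold the string TGATGCAA, known as the composite site read by ATF4 with C/EBP partners when amino acids are short or proteins misfold. The 250 bases before the start of RefSeq genes (GRCm38.p6) were searched for 12 strings on both strands, chosen after the fold changes were known. Promoters were matched by symbol for 9920 of the 13008 genes tested, 12672 promoters in all, since a gene can have several starts. TGATGCAA stood in 11 of 486 promoters of genes higher by more than 2-fold (2.26%), in 4 of 1149 of genes lower by more than 2-fold (0.348%), in 0.919% of those of genes called higher, 0.382% of those of genes called lower, in 0.521% of those of all genes tested and in 0.791% of all 32851 promoters. Windows of 58 bases are shown for 7 genes that rose and 2 that fell, with capitals at each match on either strand. All of them hold the string, and all but Got1 and Ptgr1 were added to the text after their values were seen. The other promoters among the 11 and 4 are not shown, so the windows are a selection.
Chac1 (chr2:119351024-119351081, plus strand): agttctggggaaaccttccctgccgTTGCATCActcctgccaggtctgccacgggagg
Slc7a11 (chr3:50443647-50443704, minus strand): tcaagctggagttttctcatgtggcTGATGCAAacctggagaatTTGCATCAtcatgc
Vldlr (chr19:27216795-27216852, plus strand): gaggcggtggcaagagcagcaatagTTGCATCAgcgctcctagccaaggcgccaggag
Got1 (chr19:43524675-43524732, minus strand): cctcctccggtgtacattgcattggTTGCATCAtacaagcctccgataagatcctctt
Ptgr1 (chr4:58987241-58987298, minus strand): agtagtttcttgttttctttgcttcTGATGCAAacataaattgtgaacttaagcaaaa
Pycr1 (chr11:120643819-120643876, minus strand): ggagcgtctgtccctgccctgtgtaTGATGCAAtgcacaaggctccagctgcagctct
Aars (chr8:111033705-111033762, plus strand): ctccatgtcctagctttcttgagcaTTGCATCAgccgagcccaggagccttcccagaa
Frmd4b (chr6:97617797-97617854, minus strand): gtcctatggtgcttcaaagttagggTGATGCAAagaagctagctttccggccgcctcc
Mmrn1 (chr6:60944105-60944162, plus strand): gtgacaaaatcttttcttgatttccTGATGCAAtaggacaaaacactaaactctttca
Of these genes, Vldlr, a receptor of lipoproteins, was at 61.5 and 59.01 CPM in wild type and 181 and 171 CPM in knockout (a log2 difference of 1.55, SE 0.103, edgeR adjusted p = 4.64e-07). Aars, the alanyl-tRNA synthetase, was at 158 and 171 CPM in wild type and 345 and 332 CPM in knockout (log2 1.04, SE 0.0933, adjusted p = 4.28e-06), and Pycr1, of proline synthesis, went from 8.12 to 17.8 CPM (log2 1.13). Mmrn1, a gene of platelet and endothelial granules, was at 152 and 144 CPM in wild type and 33.7 and 43.8 CPM in knockout, and fell (log2 -1.94, SE 0.133, adjusted p = 8.68e-07). Frmd4b fell from 27.2 to 12.7 CPM (log2 -1.09). The other strings are given by their shares of promoters of genes called higher, of genes called lower and of all genes tested. CACGTG was in 10.5%, 7.22% and 8.21% (6.02% of all promoters), and CCAAT in 40.0%, 32.8% and 35.3% (33.8% of all). Searched in the same sets were TGACGTCA in 2.45%, 2.05% and 2.47% (1.55% of all), TTGCGCAA in 0.23%, 0.174% and 0.237% (0.164% of all) and TTATGTAA in 0.613%, 0.555% and 0.458% (0.819% of all). Further strings were TGTTTAC in 1.72%, 2.57% and 2.15% (3.17% of all), ATTGCAT in 0.881%, 1.04% and 0.852% (1.76% of all) and AGGAAGTG in 3.37%, 3.68% and 3.53% (3.14% of all). The last of the 12 were GGAAGTGA in 4.6%, 2.71% and 3.67% (2.62% of all), CACTTCCGG in 3.94%, 1.46% and 2.98% (1.44% of all) and TGACGTGG in 0.881%, 0.659% and 0.694% (0.563% of all). A match describes these letters and is no evidence of binding.

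Methionine metabolism supplies methyl groups, and polyamines are made from ornithine. Of the 25 genes tested in the polyamine and methionine metabolism list, 10 rose and 4 fell, with 7 in the highest level bin and a median log2 fold change of 0.30. Srm, the spermidine synthase, was at 198 and 209.7 CPM in wild type and 444 and 460.4 CPM in knockout (a log2 difference of 1.15, SE 0.0915, edgeR adjusted p = 1.76e-06). Odc1, the ornithine decarboxylase, went from 98.6 to 209 CPM (log2 1.08), and the methionine synthase Mtr from 54.9 to 93.8 CPM (log2 0.77). Smox, the oxidase that breaks spermine down, was at 46.004 and 43.1 CPM in wild type and 16.8 and 14.5 CPM in knockout, and fell (log2 -1.51, SE 0.156, adjusted p = 1.17e-05), as did the antizyme gene Oaz2 (56.8 to 37.98 CPM, log2 -0.58). Of the 13 polyamine genes 4 rose and 4 fell, and of the 12 methionine genes 6 rose and 0 fell. In the zinc list 6 of 20 tested genes rose and 0 fell, with 3 in the highest level bin and a median log2 fold change of 0.16. 1 fell without the second knockout library. Its median became 0.07 with upper-quartile scaling, 0.26 without the second wild-type library and 0.24 without the first knockout library. Mt1, a metallothionein that buffers zinc, was at 9.59 and 15.9 CPM in wild type and 69.4 and 93.2 CPM in knockout (log2 2.67, SE 0.251, adjusted p = 0.000111). The zinc exporter Slc30a6 rose from 36.02 to 64.3 CPM (log2 0.84) and the importer Slc39a8 from 25.8 to 48.7 CPM (log2 0.92).

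Haem is made in mitochondria, with the synthases ALAS1 in most cells and ALAS2 in erythroid cells, and is broken down by HMOX1. Of the 21 genes tested in the haem synthesis and breakdown list, 7 rose and 6 fell, with 3 in the highest level bin and a median log2 fold change of 0.07, a median that changed sign in at least 1 alternative. Alas1 (chromosome 9, 106233455 to 106248654, GRCm38) was at 94.3 and 95.3 CPM in wild type and 387 and 483 CPM in knockout, with every knockout value above every wild-type value (a log2 difference of 2.20, SE 0.115, edgeR adjusted p = 1.26e-07). Tmem14c, a mitochondrial membrane protein of the pathway, rose from 139.8 to 259 CPM (log2 0.89) and the haem exporter Flvcr1 from 40.4 to 82.7 CPM (log2 1.03). Alas2 held 35 and 16 reads in wild type and 0 in both knockout libraries. Hebp1, a haem-binding protein, was at 31.6 and 16.8 CPM in wild type and 2.09 and 1.70 CPM in knockout (log2 -3.67, SE 0.332, adjusted p = 1.23e-05). Hmox1 was at 13.9 and 15.2 CPM in wild type and 2.97 and 1.44 CPM in knockout (log2 -2.72, SE 0.321, adjusted p = 4.2e-05), and the biliverdin reductase Blvrb fell from 40.3 to 14.1 CPM (log2 -1.52). The erythroid marker sum was lower beside these changes (96.1 and 129 to 45.3 and 67.6 CPM), as was that of monocytes and macrophages. Alas2 is itself in the erythroid list and Hmox1 in the monocyte and macrophage list, so the sums are not separate from these genes. The part of such cells in the result was not tested.

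Sphingolipids are built from ceramide, and sphingosine-1-phosphate (S1P) guides the traffic of blood cells. Of the 36 genes tested in the sphingolipid pathway list, 10 rose and 12 fell, with 9 in the highest level bin and a median log2 fold change of -0.14. 6 rose without the second wild-type library. Its median became -0.23 with upper-quartile scaling, -0.08 without the first wild-type library or without the second wild-type library and -0.01 without the first knockout library. Related enzymes and receptors changed in opposite directions. Sgms2 (chromosome 3, 131318985 to 131491411, GRCm38), a sphingomyelin synthase of the plasma membrane, was at 1.01 and 1.97 CPM in wild type and 40.03 and 37.2 CPM in knockout (a log2 difference of 4.68, SE 0.268, edgeR adjusted p = 2.21e-07). Sgms1, the Golgi enzyme of the same reaction, was at 125 and 129.7 CPM in wild type and 60.1 and 66.2 CPM in knockout, and fell without overlap (log2 -1.01, SE 0.109, adjusted p = 1.56e-05). Among ceramide synthases, which differ in the fatty acids they attach, Cers6 rose, from 11.2 and 16.2 CPM in wild type to 72.9 and 58.4 CPM in knockout (log2 2.26, SE 0.189, adjusted p = 5.13e-06). Cers4 fell from 51.5 to 20.2 CPM (log2 -1.35). The S1P receptor S1pr3 rose from 25.1 to 59.5 CPM (log2 1.24) while S1pr1 fell from 41.7 to 18.1 CPM (log2 -1.20). Spns2, the exporter of S1P, was at 599 and 518 CPM in wild type and 232 and 252 CPM in knockout (log2 -1.21, SE 0.102, adjusted p = 2.73e-06). Sgpp1 (134 to 153 CPM), an S1P phosphatase, was not called.

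**Figure D4:**
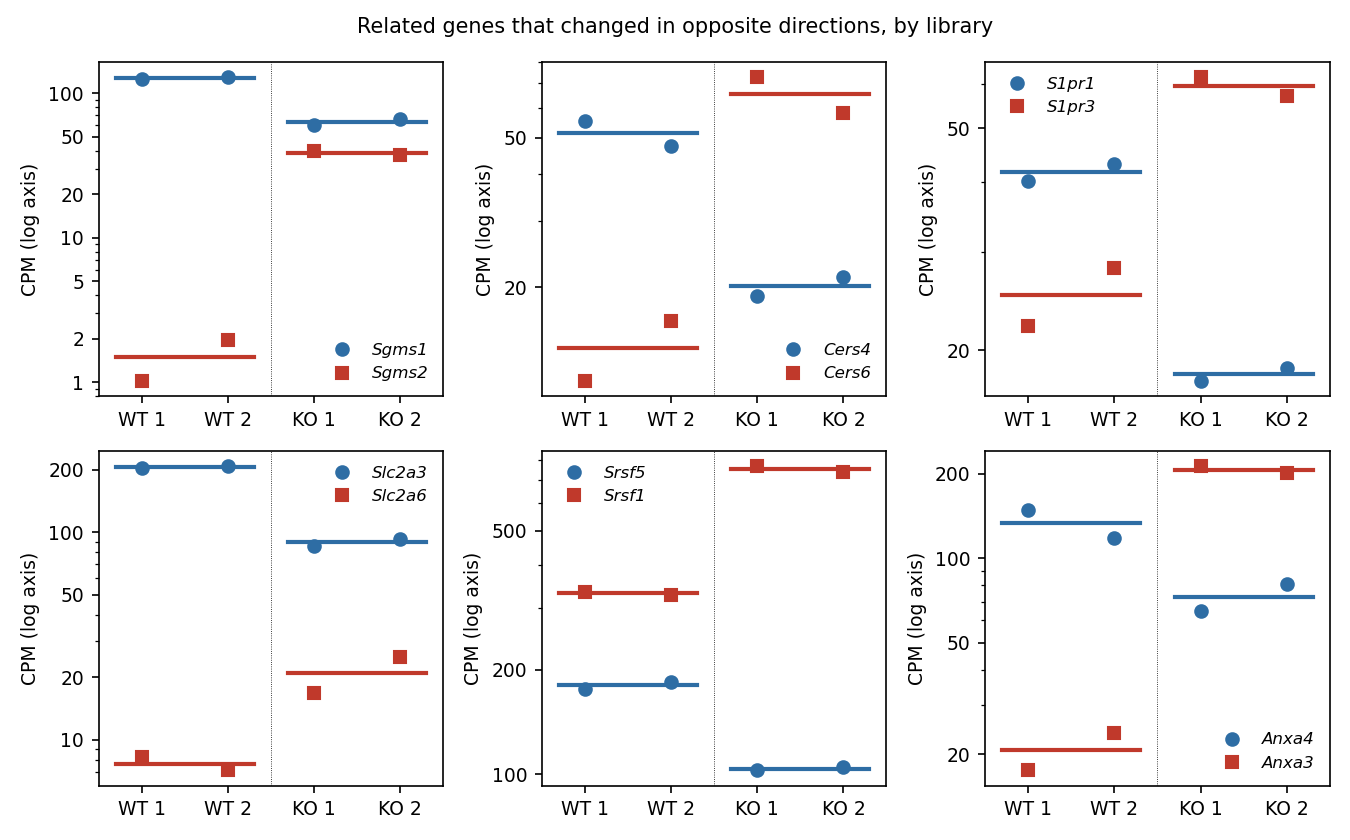
Levels in each library (CPM, log axis) of 6 pairs of related genes, with wild-type libraries left and knockout libraries right of the dotted line and horizontal bars for the mean of 2 libraries. In each pair the gene in blue circles fell and the gene in red squares rose, with no overlap between genotypes, as for Sgms1 (127 to 63.1 CPM) and Sgms2 (1.49 to 38.6 CPM). Values are not per length, so heights do not compare different genes.

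Eicosanoids are made from arachidonic acid, leukotrienes by way of LTA4H and thromboxane by TBXAS1. Of the 28 genes tested in the eicosanoid pathway list, 10 rose and 9 fell, with 4 in the highest level bin and a median log2 fold change of -0.21. 6 rose and 5 fell without the second wild-type library. Its median became -0.01 with the stricter filter. Lta4h, the hydrolase that makes leukotriene B4, was at 280.0 and 294 CPM in wild type and 568 and 719 CPM in knockout (a log2 difference of 1.16, SE 0.115, edgeR adjusted p = 1.18e-05). Ptgr1, a reductase that inactivates leukotriene B4 and prostaglandins and carries TGATGCAA, rose from 23.8 to 59.5 CPM (log2 1.32). Tbxas1, the thromboxane synthase, was at 104 and 109 CPM in wild type and 47.5 and 59.3 CPM in knockout, and fell (log2 -0.99, SE 0.127, adjusted p = 5.92e-05). The thromboxane receptor Tbxa2r fell from 51.95 to 23.5 CPM (log2 -1.14) and the prostaglandin E2 receptor Ptger2 from 24.1 to 9.95 CPM (log2 -1.28). The platelet marker sum was lower beside these (695 and 735 to 464 and 465 CPM), and its part was not tested. Enzymes that finish surface glycans split as well: among terminal glycosyltransferases 16 of 51 tested genes rose and 13 fell, with 15 in the highest level bin and a median log2 fold change of 0.11. 6 fell without the first wild-type library, and 8 fell without the first knockout library. Its median became 0.02 with upper-quartile scaling and 0.18 without the first wild-type library or without the first knockout library or without the second knockout library. Gcnt2, the enzyme that branches lactosamine chains, was at 498 and 482 CPM in wild type and 196 and 216 CPM in knockout, and fell (log2 -1.25, SE 0.0944, adjusted p = 1.18e-06). Of 18 sialic acid genes 5 rose and 8 fell, among them Cmas, which activates sialic acid (254 to 170.5 CPM, log2 -0.58). C1galt1c1, the chaperone needed for core O-glycans, rose from 31.02 to 70.6 CPM (log2 1.18) and Mgat2, of N-glycan branching, from 357 to 519 CPM (log2 0.54). Galnt1 (313 to 353 CPM) was not called.

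Notch receptors are cut after ligand binding, and the freed tail works with Mastermind proteins on DNA. Of the 34 genes tested in the Notch pathway list, 4 rose and 16 fell, with 7 in the highest level bin and a median log2 fold change of -0.50. 1 rose and 10 fell without the first wild-type library. Of 7 receptors and ligands tested 6 fell and 0 rose, and of 12 nuclear factors and targets 6 fell and 1 rose. Notch1 (chromosome 2, 26457903 to 26516663, GRCm38) was at 85.3 and 91.3 CPM in wild type and 37.6 and 38.6 CPM in knockout, and the genotypes did not overlap (a log2 difference of -1.21, SE 0.118, edgeR adjusted p = 7.67e-06). Mfng, a fringe enzyme that modifies the receptors, fell from 243 to 137 CPM (log2 -0.83), Maml2 from 18.5 to 5.26 CPM (log2 -1.81) and Maml3 from 55.2 to 25.1 CPM (log2 -1.14). Among 15 processing genes 3 rose and 4 fell. Dtx4, a ubiquitin ligase listed among the nuclear factors and targets, was at 31.1 and 32.3 CPM in wild type and 79.3 and 91.5 CPM in knockout, and rose (log2 1.43, SE 0.127, adjusted p = 3.95e-06). Adam10, the sheddase, was at 349.5 and 342 CPM in wild type and 365 and 379.7 CPM in knockout and was not called. B lineage genes fell in the same libraries (293 and 271 to 72.2 and 78.6 CPM in sum), and their part in the Notch counts was not tested.

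Wnt proteins act through Frizzled receptors, beta-catenin and TCF factors. Of the 41 genes tested in the Wnt and planar polarity list, 2 rose and 19 fell, with 3 in the highest level bin and a median log2 fold change of -0.36. 1 rose and 12 fell in DESeq2's Wald test, 1 rose with the stricter filter, 1 rose and 7 fell without the first wild-type library, and 1 rose and 9 fell without the second wild-type library. Tcf7l2, a TCF factor, was at 39.1 and 43.02 CPM in wild type and 19.1 and 18.2 CPM in knockout (a log2 difference of -1.14, SE 0.151, edgeR adjusted p = 8.06e-05). Tle2, a co-repressor, fell from 16.6 to 3.34 CPM (log2 -2.31), the beta-catenin cofactor Bcl9l from 28.6 to 13.1 CPM (log2 -1.13) and the receptor Fzd6 from 46.4 to 29.7 CPM (log2 -0.64). Ctnnb1, beta-catenin itself, was at 419 and 394 CPM in wild type and 458 and 450.1 CPM in knockout and was not called. For the TGF-beta and BMP pathway 4 of 43 tested genes rose and 14 fell (9.30% and 32.6%, beside 11.8% and 28.6% in the second level bin). The list had 7 in the highest level bin and a median log2 fold change of -0.24. 2 rose without the first wild-type library, and 2 rose and 9 fell without the second wild-type library. Tgfbr2, the type II receptor of TGF-beta, was at 178 and 158 CPM in wild type and 90.1 and 86.7 CPM in knockout, and fell (log2 -0.93, SE 0.104, adjusted p = 2.32e-05). The inhibitory Smad7 fell from 53.3 to 26.1 CPM (log2 -1.03) and the activin receptor Acvr2a from 26.6 to 9.92 CPM (log2 -1.43). Id1, an inhibitor of bHLH factors, was at 0.710 and 0.657 CPM in wild type and 10.6 and 11.7 CPM in knockout, and rose (log2 4.02, SE 0.333, adjusted p = 2.34e-06), as did Zeb2 (75.1 to 126 CPM, log2 0.74). Smad4 (184 to 156 CPM) was not called.

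G protein-coupled receptors signal through heterotrimeric G proteins, and RGS proteins and arrestins end the signal. Of the 52 genes tested in the adhesion, orphan and nucleotide GPCRs list, 5 rose and 19 fell, with 6 in the highest level bin and a median log2 fold change of -0.37. 3 rose and 12 fell without the first wild-type library, and 12 fell without the second wild-type library. Gpr171 was at 525 and 479 CPM in wild type and 265 and 244 CPM in knockout and fell (a log2 difference of -0.98, SE 0.0961, edgeR adjusted p = 8.26e-06), and P2ry10 went from 26.3 to 7.35 CPM (log2 -1.84) and the lysophosphatidic acid receptor Lpar1 from 9.10 to 1.40 CPM (log2 -2.70). Gpr141, an orphan receptor, was at 2.38 and 4.50 CPM in wild type and 36.8 and 36.7 CPM in knockout, and rose (log2 3.41, SE 0.260, adjusted p = 2.37e-06). The thrombin receptor F2r (137 and 144 CPM in wild type and 155 and 155 CPM in knockout) was not called. Among RGS proteins, G proteins and receptor kinases 3 of 35 tested genes rose and 12 fell, with 11 in the highest level bin and a median log2 fold change of -0.35. 1 rose with upper-quartile scaling, 1 rose and 7 fell without the first wild-type library, and 1 rose and 7 fell without the second wild-type library. Rgs1 was at 146 and 131 CPM in wild type and 40.5 and 26.7 CPM in knockout (log2 -2.04, SE 0.180, adjusted p = 2.69e-05). Gng11, a gamma subunit, fell from 39.4 to 15.5 CPM (log2 -1.35) and the arrestin Arrb1 from 78.3 to 44.9 CPM (log2 -0.80), while Gng12 rose from 146 to 214 CPM (log2 0.55).

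Inside the cell, lipid kinases and small GTPases relay such signals. In the list of PI3K, mTOR and phospholipase C 6 of 66 tested genes rose and 21 fell (9.09% and 31.8%, beside 11.8% and 28.6% in the second level bin). The list had 14 in the highest level bin and a median log2 fold change of -0.15. 3 rose with upper-quartile scaling, 1 rose without the first wild-type library, and 2 rose and 13 fell without the second wild-type library. Its median became -0.25 with upper-quartile scaling and -0.07 without the first knockout library. Of 18 genes of phospholipase C and diacylglycerol 9 fell and 0 rose, whereas of 25 genes around Akt and mTOR 5 fell and 2 rose. Ddit4, an inhibitor of mTORC1, was at 97.4 and 82.9 CPM in wild type and 20.7 and 24.5 CPM in knockout, and fell (a log2 difference of -1.997, SE 0.141, edgeR adjusted p = 7.86e-07). Pik3ip1, an inhibitor of PI3K, fell from 399 to 169 CPM (log2 -1.24), Sesn1, which restrains mTORC1 when amino acids are low, from 319 to 137 CPM (log2 -1.21) and the phospholipase Plcg1 from 132 to 73.2 CPM (log2 -0.85). Members that fell include inhibitors as well as activators. Akt1 (427 to 493 CPM) was not called. Among ion channels 5 of 48 tested genes rose and 12 fell, with 7 in the highest level bin and a median log2 fold change of -0.14. 3 rose with upper-quartile scaling, 5 fell without the first wild-type library, and 7 fell without the second wild-type library. Its median became -0.23 with upper-quartile scaling. Among Ras and Rap regulators 1 of 38 tested genes rose and 15 fell, with 8 in the highest level bin and a median log2 fold change of -0.37. 2 rose with no filter, 2 rose with the replicate block, 2 rose without the second wild-type library, and 8 fell without the first wild-type library. Sipa1, which switches Rap1 off, was at 224 and 232 CPM in wild type and 114 and 114 CPM in knockout (log2 -0.9995, SE 0.0943, adjusted p = 5.99e-06). Rasal3, a Ras GTPase activator, fell from 279 to 165 CPM (log2 -0.76), and the effector Rassf4 rose from 55.5 to 108 CPM (log2 0.96).

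The molecular clock is a loop in which CLOCK and BMAL1 drive their own repressors, the PER and CRY proteins. Of the 25 genes tested in the circadian clock list, 6 rose and 15 fell, with 4 in the highest level bin and a median log2 fold change of -0.47. 9 fell without the first wild-type library, and 7 fell without the second wild-type library. Of 17 core genes 13 fell and 2 rose, and of 8 output genes 2 fell and 4 rose. Per1 was at 70.2 and 73.8 CPM in wild type and 22.5 and 20.4 CPM in knockout (a log2 difference of -1.75, SE 0.132, edgeR adjusted p = 1.18e-06). Nr1d2, a haem-binding repressor of the loop, fell from 130.0 to 71.1 CPM (log2 -0.87), Rora from 21.8 to 7.76 CPM (log2 -1.49) and Tef from 73.7 to 40.6 CPM (log2 -0.86). Bhlhe40, a repressor of CLOCK targets, was at 11.1 and 8.40 CPM in wild type and 28.7 and 28.9 CPM in knockout, and rose (log2 1.56, SE 0.195, adjusted p = 5e-05), and Nampt, of NAD synthesis, went from 151 to 252 CPM (log2 0.74). Per2 (20.1 and 20.8 CPM in wild type and 18.6 and 15.5 CPM in knockout) was not called. The time of day of collection is not stated, and its part in these changes was not tested.

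Retinoic acid is made from retinol by dehydrogenases and acts through nuclear receptors. Of the 44 genes tested in the nuclear receptors and retinoids list, 3 rose and 21 fell, with 4 in the highest level bin and a median log2 fold change of -0.47. 1 rose without the first wild-type library, 1 rose without the second knockout library, and 12 fell without the second wild-type library. No receptor of 21 tested rose and 9 fell. Aldh1a1, which oxidises retinal to retinoic acid, was at 31.9 and 34.2 CPM in wild type and 9.33 and 10.003 CPM in knockout (a log2 difference of -1.77, SE 0.176, edgeR adjusted p = 8.7e-06). Dhrs3, which returns retinal to retinol, fell from 70.7 to 25.8 CPM (log2 -1.46) and the corepressor Nrip1 from 187 to 116 CPM (log2 -0.68). Retsat, the retinol saturase, rose from 44.3 to 83.4 CPM (log2 0.91), with 18.4% of its exon bases shared with an antisense gene. Rxrb (229.6 to 202 CPM) was not called.

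Autophagy wraps cell contents in membranes marked by LC3 and GABARAP proteins. Of the 49 genes tested in the autophagy list, 3 rose and 17 fell, with 15 in the highest level bin and a median log2 fold change of -0.26. 5 rose with no filter, 1 rose without the first wild-type library, 6 rose without the second knockout library, and 26 fell with upper-quartile scaling. Tecpr1 was at 44.1 and 42.2 CPM in wild type and 9.90 and 12.3 CPM in knockout (a log2 difference of -1.95, SE 0.171, edgeR adjusted p = 3.53e-06). Pink1, which marks damaged mitochondria, fell from 293 to 132 CPM (log2 -1.14) and Map1lc3b, an LC3 gene, from 321 to 172 CPM (log2 -0.90). Tfec, of the family of transcription factors that drive lysosome genes, rose from 26.5 to 53.5 CPM (log2 1.01). Tax1bp1 (539 to 603 CPM) was not called. Enzymes of NEDD8 and the COP9 signalosome act on cullin ligases such as that of Spop, and SUMO is another ubiquitin-like protein with enzymes of its own. In the list of all of these 17 of 40 tested genes rose and 4 fell, with 16 in the highest level bin and a median log2 fold change of 0.22. 10 rose with upper-quartile scaling, 9 rose and 2 fell without the first wild-type library, and 7 rose and 2 fell without the second wild-type library. Its median became 0.12 with upper-quartile scaling. Of 10 COP9 genes 7 rose and 0 fell, of 14 neddylation genes 6 rose and 1 fell, and of 16 SUMO genes 4 rose and 3 fell. Cops3 was at 199 and 184 CPM in wild type and 326 and 279 CPM in knockout (log2 0.66, SE 0.103, adjusted p = 0.00025). Ube2m, the main conjugating enzyme of NEDD8, rose from 157 to 226 CPM (log2 0.53) and Dcun1d1, which assists it, fell from 149.7 to 102 CPM (log2 -0.56). Sae1, a subunit of the SUMO-activating enzyme, rose from 322 to 478 CPM (log2 0.57), and Senp7, a SUMO protease, fell from 47.7 to 28.3 CPM (log2 -0.75).

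Secreted factors carry signals between cells of the marrow. Of the 45 genes tested in the secreted growth factors and cytokines list, 10 rose and 15 fell, with 5 in the highest level bin and a median log2 fold change of -0.51. 6 rose without the first wild-type library. Its median became -0.31 without the second wild-type library. Angpt1, the ligand of the stem cell receptor TIE2, was at 819 and 624 CPM in wild type and 298 and 307 CPM in knockout (a log2 difference of -1.25, SE 0.123, edgeR adjusted p = 1.46e-05). Ltb, lymphotoxin beta, fell from 127 to 34.9 CPM (log2 -1.86), Il12a from 59.4 to 17.6 CPM (log2 -1.76) and Gas6, a ligand of TAM receptors, from 18.1 to 3.29 CPM (log2 -2.46). Manf, a secreted protein of the endoplasmic reticulum, was at 158 and 138 CPM in wild type and 363 and 313 CPM in knockout, and rose (log2 1.19, SE 0.108, adjusted p = 5.03e-06), as did Vegfa (7.09 to 17.8 CPM, log2 1.33) and Mif (39.5 to 72.3 CPM, log2 0.87). In the TNF superfamily 4 of 41 tested genes rose and 11 fell (9.76% and 26.8%, near the 11.8% and 28.6% of the second level bin). The list had 6 in the highest level bin and a median log2 fold change of -0.16. 2 rose with upper-quartile scaling, 2 rose and 3 fell without the first wild-type library, and 1 rose without the second wild-type library. Its median became -0.25 with upper-quartile scaling and -0.08 without the second wild-type library. The adaptor Traf4 fell from 40.5 to 18.2 CPM (log2 -1.15) and the lymphoid receptor Cd27 from 272 to 182 CPM (log2 -0.58). Among guidance receptors and ligands 6 of 37 tested genes rose and 12 fell, with 2 in the highest level bin and a median log2 fold change of -0.67. 3 rose without the second wild-type library. Its median became -0.41 with the stricter filter and -0.43 without the first knockout library. Sema4a was at 7.20 and 10.1 CPM in wild type and 45.8 and 44.96 CPM in knockout and rose (log2 2.38, SE 0.188, adjusted p = 1.62e-06), while the roundabout receptor Robo4 fell from 21.2 to 8.74 CPM (log2 -1.28) and Ephb6 from 25.7 to 10.5 CPM (log2 -1.29). Plxnb2 (76.1 to 85.7 CPM) was not called. Among protease inhibitors 7 of 28 tested genes rose and 12 fell, with 6 in the highest level bin and a median log2 fold change of 0.02, a median that changed sign in at least 1 alternative. Cst7, the cystatin F gene, was at 50.6 and 45.1 CPM in wild type and 209 and 254 CPM in knockout, and rose (log2 2.27, SE 0.122, adjusted p = 1.26e-07), as did Slpi, an inhibitor of neutrophil elastase (15.7 to 47.7 CPM, log2 1.60). Timp2, an inhibitor of metalloproteinases, fell from 72.4 to 31.6 CPM (log2 -1.20).

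Tight, adherens and gap junctions hold neighbouring cells together. Among genes of cell junctions 6 of 44 tested genes rose and 16 fell, with 3 in the highest level bin and a median log2 fold change of -0.38. 10 fell without the first wild-type library. F11r, a junctional adhesion molecule, was at 78.2 and 66.6 CPM in wild type and 31.1 and 34.96 CPM in knockout, and fell (a log2 difference of -1.13, SE 0.135, edgeR adjusted p = 3.47e-05), as did plakoglobin, Jup (40.8 to 15.8 CPM, log2 -1.37). Gja1, connexin 43, rose from 13.4 to 26.4 CPM (log2 0.98) and Perp, of desmosomes, from 4.11 to 13.1 CPM (log2 1.67). Among tubulins and microtubule factors 12 of 43 tested genes rose and 6 fell, with 9 in the highest level bin and a median log2 fold change of -0.06, a median that changed sign in at least 1 alternative. 2 fell without the first wild-type library. Of 14 tubulin genes tested 7 rose and 0 fell. Tubb5 went from 403 to 709 CPM (log2 0.82), and reads can be split between such similar copies. Among annexins, S100 proteins and galectins 5 of 23 tested genes rose and 5 fell (21.7% each, near the 21.0% and 21.2% over all genes tested). The list had 10 in the highest level bin and a median log2 fold change of -0.04, a median that changed sign in at least 1 alternative. Anxa3 was at 17.5 and 23.9 CPM in wild type and 213 and 201 CPM in knockout and rose (log2 3.32, SE 0.144, adjusted p = 3.68e-08), and Anxa2 went from 109.8 to 228 CPM (log2 1.06). Anxa4 was at 149 and 118 CPM in wild type and 64.95 and 80.6 CPM in knockout and fell (log2 -0.87, SE 0.140, adjusted p = 0.000472), and S100a10, the partner of annexin A2, fell from 246 to 133 CPM (log2 -0.89).

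Long non-coding RNAs, microRNAs and imprinted genes regulate other genes. Of the 20 genes tested in the long non-coding and host RNAs list, 0 rose and 8 fell, with 3 in the highest level bin and a median log2 fold change of -0.95. 3 fell without the first wild-type library, and 4 fell without the second wild-type library. Its median became -0.56 without the second knockout library. Gas5, a host of small nucleolar RNAs, was at 254 and 224 CPM in wild type and 130.5 and 119 CPM in knockout (a log2 difference of -0.94, SE 0.104, edgeR adjusted p = 1.99e-05). Neat1, the scaffold of paraspeckles, went from 12.5 to 5.14 CPM (log2 -1.28) and Malat1 from 193 to 98.7 CPM (log2 -0.97). By the annotation's gene types, 16 of 81 long intergenic RNAs fell (19.75%) and 2 rose (2.47%). Of 147 antisense RNAs, 28 fell (19.05%) and 5 rose (3.401%). Among protein-coding genes 21.6% fell and 22.2% rose. RNAs of these types thus fell no more often than protein-coding genes, but they rose less often. In the list of the let-7 axis and microRNA machinery 4 of 35 tested genes rose and 10 fell. These shares (11.4% and 28.6%) were near the 11.8% and 28.6% of the second level bin. The list had 7 in the highest level bin and a median log2 fold change of -0.05. 6 fell without the second wild-type library. Its median became -0.03 with DESeq2 size factors or in DESeq2's Wald test or with no filter, -0.15 with upper-quartile scaling, -0.08 without the first wild-type library, -0.02 without the second wild-type library or without the second knockout library and -0.10 without the first knockout library. LIN28 blocks let-7 in fetal blood stem cells, and HMGA2 is a let-7 target. Lin28a was at 0 reads in wild type and at 12 and 22 reads in knockout, and Hmga2 fell from 9.04 to 2.57 CPM (log2 -1.81). Xpo5, the exporter of microRNA precursors, was at 94.4 and 83.2 CPM in wild type and 178 and 171 CPM in knockout (log2 0.98, SE 0.105, adjusted p = 1.55e-05), and Tut4, which adds uridine to let-7 precursors, fell from 122 to 78.6 CPM (log2 -0.63). Of the imprinted genes 3 of 27 tested genes rose and 8 fell, with 4 in the highest level bin and a median log2 fold change of -0.19. 5 rose without the second knockout library, and 3 fell without the first wild-type library. Its median became -0.43 with the stricter filter, -0.09 without the second wild-type library and -0.12 without the first knockout library. Igf2r fell from 14.8 to 3.24 CPM (log2 -2.19), Sgce from 26.4 to 10.6 CPM (log2 -1.31) and the CDK inhibitor gene Cdkn1c from 17.6 to 5.54 CPM (log2 -1.67), with 30.7% of its exon bases antisense to another gene. Dlk1, a Notch ligand-like protein, rose from 1.16 to 8.02 CPM (log2 2.78).

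Genes that share a symbol stem were counted too, beside 21.0% higher and 21.2% lower over all genes tested. By stem, 73.3% rose and 0% fell for Ints (Integrator), and 35.3% and 0% for Trmt. For Kdm 5.88% rose and 47.1% fell, and for Smim 5.26% and 57.9%. How many genes of a stem lie in the highest level bin, where 42.5% rose, was not counted. Of 343 genes tested whose symbol begins with Zfp and a number, mostly zinc finger genes, 87 fell (25.4%, near the 21.2% over all genes tested). Only 7 rose (2.04%, against 21.0% over all genes tested), and the median was -0.27. The count that fell was 44 without the first and 43 without the second wild-type library, and the count that rose was 2 without the first wild-type library, 16 without the second knockout library and 4 with upper-quartile scaling. Zfp608 was at 57.1 and 59.1 CPM in wild type and 24.2 and 23.3 CPM in knockout (log2 -1.29, SE 0.133, adjusted p = 1.15e-05), and Zfp467 went from 33.1 to 9.87 CPM (log2 -1.75). In the Integrator complex, which cuts the ends of small nuclear RNAs, 11 of 15 genes rose and 0 fell, 7 without the first wild-type library. Ints2 was at 44.5 and 53.2 CPM in wild type and 85.1 and 90.6 CPM in knockout (log2 0.85, SE 0.125, adjusted p = 0.00017). Of 17 Trmt genes, most of which encode methyltransferases of transfer RNA, 6 rose and 0 fell (1 fell without the second wild-type library, with the block, with upper-quartile scaling and with the stricter filter), and Trmt61a and Trmt6, which form 1 enzyme, went from 40.98 to 78.1 CPM (log2 0.93) and from 62.4 to 107 CPM (log2 0.78). Of 17 histone demethylase genes named Kdm 8 fell and 1 rose, 5 and 4 fell without the first or second wild-type library, and 0 rose without the first or with upper-quartile scaling. Kdm5b was at 186 and 209 CPM in wild type and 105 and 115 CPM in knockout and fell (log2 -0.85, SE 0.104, adjusted p = 4.51e-05). Among 19 genes of small membrane proteins named Smim 11 fell and 1 rose, 4 fell without the first wild-type library and 0 rose without the second or with upper-quartile scaling, and Smim3 went from 147 to 71.4 CPM (log2 -1.04).

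Outside lineage and cell cycle genes, the largest rises at moderate or high levels included that of the complement gene C3. C3 was at 4.36 and 5.72 CPM in wild type and 70.4 and 71.7 CPM in knockout (a log2 difference of 3.81, SE 0.171, edgeR adjusted p = 2.38e-08), and C4b went from 2.23 to 23.1 CPM (log2 3.37). Pmaip1, the death-promoting BH3 protein NOXA, was at 2.99 and 3.71 CPM in wild type and 38.5 and 31.1 CPM in knockout (log2 3.37, SE 0.218, adjusted p = 3.71e-07). Slc22a4, a carrier of ergothioneine, rose from 1.97 to 19.6 CPM (log2 3.30), Hsd11b1, which regenerates glucocorticoids, from 2.10 to 17.5 CPM (log2 3.04), Papss2, which makes the sulfate donor, from 2.85 to 23.2 CPM (log2 3.02) and the guanine deaminase Gda from 5.62 to 42.5 CPM (log2 2.91). Dgat2, an enzyme of triglyceride synthesis, was at 0.456 and 2.58 CPM in wild type and 22.7 and 18.99 CPM in knockout, and leaving out either knockout library, or adding the replicate block, ended its call (adjusted p = 0.279, 0.263 and 0.0633 in that order). Among the largest falls was that of Gem, a small GTPase, from 74.9 and 60.6 CPM in wild type to 5.79 and 7.61 CPM in knockout (log2 -3.34, SE 0.183, adjusted p = 1.33e-07). Ddx4, an RNA helicase known from germ cells, was at 88.5 and 56.8 CPM in wild type and 10.9 and 8.03 CPM in knockout (log2 -2.93, SE 0.247, adjusted p = 3.76e-05). Itsn1, a scaffold of endocytosis, was at 64.6 and 74.9 CPM in wild type and 10.1 and 10.7 CPM in knockout (log2 -2.75, SE 0.151, adjusted p = 1.24e-07). Sdc4, a heparan sulfate proteoglycan, fell from 34.9 to 3.83 CPM (log2 -3.19), Sult1a1, a sulfotransferase, from 26.1 to 3.11 CPM (log2 -3.07), the muscle glycogen phosphorylase Pygm from 38.5 to 6.22 CPM (log2 -2.63), Gfra1, a receptor of GDNF, from 16.9 to 2.63 CPM (log2 -2.68) and the fatty acid transporter Slc27a2 from 14.9 to 1.43 CPM (log2 -3.38).

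Some genes were read almost only in 1 genotype, with at most 3 reads in each library of the other and at least 1 CPM in each library of the first: 15 genes were read in knockout and 31 in wild type. Nrg1 (chromosome 8, 31814551 to 32884029, GRCm38) held 0 and 0 reads in wild type and 65 and 86 in knockout. Neuregulin 1, its product, is a ligand of ERBB receptors, and the rise is at least 27.2-fold against a floor of 3 reads per library. Tctex1d1 held 0 and 1 reads in wild type and 99 and 101 in knockout, with 49.8% of its exon bases shared with an opposite-strand gene, and Mgam, a maltase-glucoamylase, 0 and 2 reads in wild type and 85 and 101 in knockout. Stc2, a secreted stanniocalcin, held 1 and 0 reads in wild type and 26 and 43 in knockout. Among those read in wild type Hbb-bs, a globin, held 160 and 236 reads in wild type and 1 and 1 in knockout. The globins Hba-a1 (51 and 61 reads to 0 and 2) and Hba-a2 (35 and 41 to 0 and 0) fell too. But the globin Hbb-bt held 696 and 557 reads in wild type and 517 and 631 in knockout, and was not called (log2 -0.02). The immunoglobulin segment Ighv1-74 held 189 and 175 reads in wild type and 3 and 1 in knockout. Igkv4-79, a kappa segment, held 141 and 178 reads in wild type and 0 and 0 in knockout, at least 49.1-fold lower. Other segments were read almost only in knockout: Igkv3-12 (0 and 0 reads to 23 and 31), Ighv10-1 (1 and 0 to 29 and 29) and Igkv4-53 (0 and 1 to 24 and 37). Of 32 Igkv segments tested 5 rose and 5 fell (15.6% each), and of 33 Ighv segments 3 rose and 11 fell (9.09% and 33.3%). Over all genes tested 21.0% rose and 21.2% fell. Reads of globins and immunoglobulin segments can be split between near-identical copies. Erythroid and B lineage marker sums were lower in the same libraries, the erythroid sum with the globins named here among its genes. The part of such cells in these losses was not tested. By difference in mean CPM, the 10 genes that gained the most, led by Mpo, Elane, Calr, Hspa5, Plac8, P4hb, Prtn3 and Ldha, held 11.6% of the summed gain over all genes tested. The 10 that lost the most, led by Serinc3, Txnip and Tsc22d3, held 7.19% of the summed loss, so that most of both lay in other genes. With TMM scaling the summed gain was 210530 CPM and the summed loss 99687.8 CPM, so the shares refer to totals of unlike size. Tsc22d3, the glucocorticoid-induced leucine zipper, was at 1355 and 1266 CPM in wild type and 319.8 and 385 CPM in knockout (log2 -1.89, SE 0.110, adjusted p = 1.63e-07).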

How the data were processed

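RNA of LSK cells was prepared with the RNeasy Micro kit and the SMART-Seq v4 kit, which does not mark strand, per the labels. The deposited values are raw read counts per Ensembl gene; STAR, featureCounts, bcl2fastq, DESeq2 and the builds mm10 and GRCm38 stand in the submitters' processing notes, with no versions or roles. Symbols came from GENCODE M21, which matched 35412 of 37187 identifiers.

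Counts of the 4 libraries (18827892 to 20264417 reads) were scaled by TMM, filtered by filterByExpr with genotype as group, and tested with edgeR 4.0.16 (R 4.3.3, robust glmQLFit and glmQLFTest) with Benjamini-Hochberg adjustment at 0.05. On simulated counts with 200 changed genes, 80% and 98% of those changed by log2 1 and 2 were recovered, with 9 false calls. The simulation ran 12775 genes without a spread fitted to each gene, and changed only genes above a set mean read count. In the data 42.2% of genes were called, so these rates are not the error rates of this comparison. Replicates differed beyond sampling noise (chi-square per gene 9.87 in wild type and 18.0 in knockout). Intervals are not given, and the floor of 3 reads covers counting error only.

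The function lists and the genes of this comparison were chosen with earlier results of these data known. Genes were named by a rule: Spop, the 12 of largest change in each direction at moderate or higher level without overlap and outside lineage, cell cycle and already described genes, and the 10 of largest gain and loss of CPM. From each list came up to 4 of smallest p in the direction with more calls, 3 in the other and 2 uncalled genes of highest level. Up to 6 genes read almost only in 1 genotype came from each direction, and up to 3 genes from each symbol family. Not every gene that the rule allows is named. Some genes and 1 function list are not reported here. Kit, Ly6a, Alas2, the mature neutrophil and dissociation genes given and the genes with promoters shown, other than Got1 and Ptgr1, were added after their values were seen. So were Hbb-bt, Hba-a1, Hba-a2 and the immunoglobulin segments read almost only in knockout. Alternatives were DESeq2 1.42.0 (size factors and Wald test), upper-quartile scaling, limma 3.58.1 (voom), no filter, a filter of 1 CPM in all libraries of a genotype, a replicate block, and leaving out each library, in which case the lone library is assumed to vary like the others.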

Additional observations from a re-analysis of the deposited data

How the results depend on the processing

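Counts of genes called higher kept within 1.5 times of 2738 under every alternative (1848 to 3046). Genes called lower numbered 1676 to 2816 when 1 library was left out, and 2247 to 3445 under the other alternatives. With upper-quartile scaling the median of all genes moved from -0.03 to -0.125 on the log2 scale, and 2207 genes were higher and 3445 lower. The Spop log2 fold change was -0.33 without the first and -0.30 without the second wild-type library, and neither passed the threshold. Replicate numbers are names only: the deviations of same-numbered libraries had a correlation of 0.00926 across genes. A replicate block, which is not a pairing given by the labels, called 2881 genes higher and 2895 lower. Of the 76 list counts, 30 moved by more than 1.5 times without the first wild-type library and 26 without the second. Without the first knockout library 2 list counts moved, and without the second 6 moved. Each of these fits leaves 1 residual degree of freedom, and the cause of the difference was not tested. The symbol family counts were put through the same alternatives after seeing the data. Levels under the floor of 0.141 to 0.160 CPM could not be read.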
